A study of Homo sapiens with 6 samples.

Results

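The mitochondrial ribosomal proteins are described here in the human acute myeloid leukaemia line OCI-AML2, grown with the MARK inhibitor MRT199665 or with vehicle. Members were the rows of the deposited count table whose gene symbol begins with MRPL or MRPS followed by a number. This gave 76 of the 55765 rows of the table, 47 named for the large subunit (MRPL) and 29 for the small subunit (MRPS). Left out were 66 pseudogene rows and 1 antisense row, MRPL23-AS1, which had no count in any library. The rule used names only and no measured value. Mitochondria hold their own ribosome, which translates the few messenger RNAs made from mitochondrial DNA, all of them for subunits of the respiratory chain and the ATP synthase. Its ribosomal RNAs come from mitochondrial DNA, but all of its proteins are encoded in the nucleus, made in the cytosol and imported. Leukaemia cells of the myeloid lineage are known for their reliance on mitochondrial translation.

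Each group held 3 libraries, one group treated with 100 nM MRT199665 and the other with vehicle control, both for 48 h. All 6 libraries came from the same line, per the labels from clones grown from single cells, and were sequenced from the 3′ ends of messenger RNAs. The labels do not say how many clones there were, nor whether replicates were separate cultures. The p-values therefore measure only how far these libraries spread, and that spread may be technical. MRT199665 inhibits MARK kinases, which act on proteins that bind microtubules, and also SIK kinases. The comparison asked which transcripts differed with the inhibitor.

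Total counts lay between 5871097 and 14308650, with MRT199665 replicate 2 the shallowest. Along the first principal component, which took 46.75% of the variance, the groups were mixed, and its ends were MRT199665 replicate 2 and vehicle replicate 2. The second component took 26.25% of the variance, and along it the groups did not overlap. MRT199665 replicates 1, 2 and 3 stood there at -26.43, -5.945 and -16.34, and vehicle replicates 1, 2 and 3 at 35.33, 0.9544 and 12.43. Of the 8 myeloid markers, 6 were detected, among them CD33, SPI1 and MPO, while CEBPA and CD34 had no count in any library. The myeloid markers summed to between 575 and 631 CPM (counts scaled so that library sizes are equal) with MRT199665 and to between 531 and 545 CPM with vehicle. The epithelial markers EPCAM and KRT19 reached at most 1 count, and the T-cell markers CD3D and CD3E summed to at most 0.429 CPM. The fibroblast markers COL1A1 and COL1A2 summed to between 0.676 and 1.51 CPM with MRT199665 and to between 0.503 and 1.03 CPM with vehicle. The part of these markers in the results below was not tested.

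No messenger RNA of a mitochondrial ribosomal protein passed the test in either direction with MRT199665. Of the 76 members, 70 had enough counts to be tested, 43 of the large and 27 of the small subunit. With edgeR's quasi-likelihood test and Benjamini-Hochberg adjustment over 13053 genes, 0 of 70 members had an adjusted p under 0.05, and the lowest adjusted p was 0.126. Of all genes tested, 1.25% passed in either direction. At an unadjusted p under 0.05, 6 members were lower (8.57%, against 7.11% of all genes) and 1 was higher (1.43%, against 7.64% of all genes). DESeq2 and limma-voom also called 0 members. With DESeq2, 6 of 70 members were lower at an unadjusted p under 0.05. Without the low-count filter it was 10 of 76, and without both ends of the first principal component 11 of 70. The shares of all genes in these other fits are not given here, so these counts cannot be set against a background.

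Most members lay slightly below vehicle. The fitted log2 fold change, MRT199665 minus vehicle, was negative for 50 of 70 members (71.4%) against 49.1% of all genes tested. With 1 library left out, 46 to 56 of the 70 were negative. Its median was -0.09 with quartiles of -0.20 and 0.01, where all genes had a median of 0.01 and quartiles of -0.19 and 0.21. The 3 libraries of the groups did not overlap for 11 members that were lower with MRT199665 (15.7%, against 10.8% of all genes) and for 2 that were higher (2.86%, against 11.4%). The 11 were MRPL10, MRPL11, MRPL17, MRPL42, MRPL52, MRPS5, MRPS15, MRPS17, MRPS18B, MRPS30 and MRPS35, and the 2 were MRPL49 and MRPS11. For 39 of the 70 members (55.7%) the 95% interval of the fold change lay within 1.5-fold of no change in both directions, against 37.4% of all genes. For 61 of the 70 it lay within 2-fold, against 9778 of all 13053 genes tested. In bulk RNA, fewer cells of a kind and less RNA per cell cannot be told apart.

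**Figure D1:**
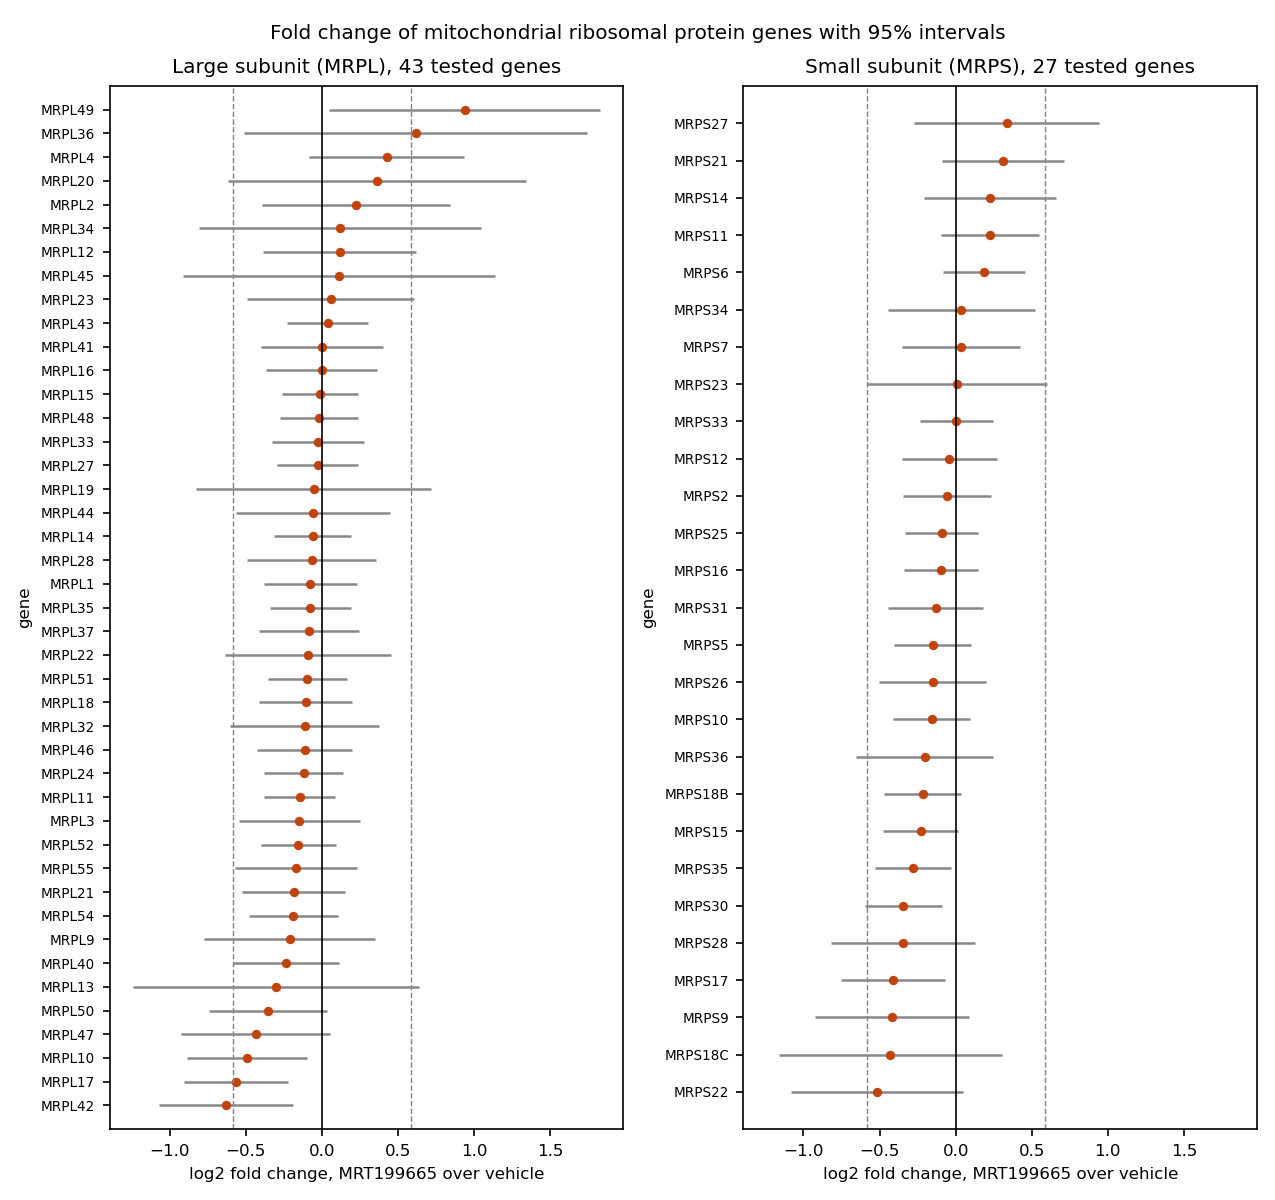
Fitted log2 fold change, MRT199665 minus vehicle (x axis), of each tested member of the large (43 genes) and small (27 genes) subunit, with its 95% interval from edgeR. Most points lie just left of 0, and the widest intervals belong to MRPL36, MRPL45 and MRPL20.

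The 2 subunits had medians on the same side of 0. In the large subunit 32 of 43 members were negative (74.4%), with a median log2 fold change of -0.07 and a range from -0.63 to 0.94. In the small subunit 18 of 27 were negative (66.7%), with a median of -0.13 and a range from -0.52 to 0.34. The difference of the medians, large minus small, was 0.06. It was not tested. With 1 library left out it was 0.005 without MRT199665 replicate 2, 0.015 without vehicle replicate 3 and at most 0.076, without vehicle replicate 1. Some of these fits, such as that without vehicle replicate 3, tested 71 members. Over the same 43 and 27 members, the medians without vehicle replicate 3 were -0.092 for the large and -0.08 for the small subunit. There the order of the 2 subunits was reversed. The large subunit median itself was -0.13 without MRT199665 replicate 2 and -0.04 without MRT199665 replicate 1. At an unadjusted p under 0.05, 3 members of each subunit were lower, and 1 large subunit member was higher.

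In the assembled ribosome MRPS30 and MRPS18A sit in the large subunit despite their names. Moving them there gave medians of -0.08 for the large and -0.12 for the small subunit. Within the large subunit, 20 of 27 tested proteins with a bacterial counterpart were negative (median -0.07), as were 12 of 16 found only in the mitochondrial ribosome (median -0.10). Among members named for the small subunit, 10 of 15 listed with a bacterial counterpart were negative (median -0.10), as were 8 of the 12 others (median -0.14). These others still held MRPS30, besides MRPS36. They also held MRPS18B, although MRPS18C of the same gene family was listed with a bacterial counterpart. The 4 class medians were thus all below 0.

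Taken over all tested members of a subunit, the mean of log2 CPM centred per gene placed the small subunit at -0.132, 0.00401 and -0.036 in MRT199665 replicates 1, 2 and 3, and at 0.0972, 0.022 and 0.0444 in vehicle replicates 1, 2 and 3. Each treated library was below each vehicle library, by as little as the gap between MRT199665 replicate 2 and vehicle replicate 2. The large subunit stood at -0.163, 0.146 and -0.0622 with MRT199665 and at 0.0982, 0.00189 and -0.0207 with vehicle. There the groups overlapped, since MRT199665 replicate 2 was the highest of the 6 libraries. The summed level of all members was 5130 ± 268 CPM in treated and 5360 ± 39.2 CPM in vehicle libraries (SD, n = 3 each), and members took 0.477% to 0.554% of the counts of a library.

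**Figure D2:**
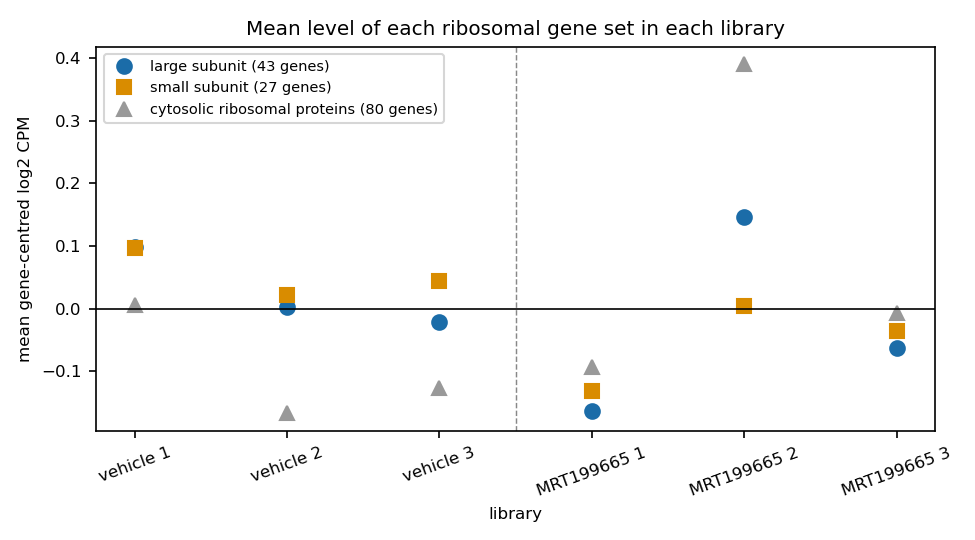
Mean gene-centred log2 CPM (y axis) of the tested large and small subunit members and of the cytosolic ribosomal proteins in each library (x axis), 1 point per set and library. MRT199665 replicate 2 stands highest of the treated libraries in each set, at 0.146 for the large subunit, 0.00401 for the small subunit and 0.39 for the cytosolic ribosomal proteins.

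Of the large subunit members that were lower, MRPL17, MRPL42, MRPL10 and MRPL50 had the lowest p. MRPL17, whose bacterial counterpart lies beside the exit of the tunnel through which a new protein leaves, was measured at 41.8, 28.6 and 38.1 CPM with MRT199665 and at 53.0, 54.6 and 53.8 CPM with vehicle. All treated libraries were lower than all vehicle libraries. The log2 fold change was -0.57 ± 0.15 (SE), 1.48-fold lower, with a 95% interval from -0.91 to -0.23 and an adjusted p of 0.126 by edgeR. MRPL42, a protein found only in the mitochondrial ribosome, was at 10.7, 14.9 and 11.2 CPM against 23, 17 and 16.1 CPM with vehicle. These groups did not overlap either, and the log2 fold change was -0.63 ± 0.19 (SE) with an adjusted p of 0.178 by edgeR.

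When genes with few counts were also kept in the fit, MRPL17 and MRPL42 passed the edgeR test, with adjusted p of 0.0208 and 0.0314. They were the 2 members called in that setting, of 76 tested. The share of all genes called there is not given here, so these calls cannot be set against a background. Over all settings the adjusted p ranged from 0.0208 to 0.456 for MRPL17 and from 0.0314 to 0.531 for MRPL42, and both stayed negative.

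MRPL10, which anchors the stalk that receives translation factors, stood at 51.4, 31.3 and 46.7 CPM with MRT199665 and at 60.1, 60.9 and 62.2 CPM with vehicle. The groups did not overlap, and MRT199665 replicate 2 was the lowest library by some distance. Its log2 fold change was -0.49 ± 0.17 (SE), with an adjusted p of 0.237 by edgeR, and -0.32 without that library. MRPL50, found only in mitochondria, was at 7.02, 8.62 and 6.52 CPM against 8.47, 10.0 and 9.47 CPM, with an adjusted p of 0.384 by edgeR. MRT199665 replicate 2 was here the highest treated library and overlapped vehicle replicate 1.

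MRPL12, the stalk protein that MRPL10 holds and that has also been described as a partner of the mitochondrial RNA polymerase, was at 153, 160 and 186 CPM with MRT199665 and at 99.8, 190 and 171 CPM with vehicle. Vehicle replicate 1 was far below the other libraries, which overlapped. The log2 fold change was 0.12 ± 0.22 (SE), with a 95% interval from -0.38 to 0.62, and it was -0.12 without vehicle replicate 1. MRPL41, a mitochondrial addition to the large subunit, was at 141, 107 and 131 CPM against 102, 157 and 120 CPM, a log2 fold change of 0.00 with a 95% interval from -0.40 to 0.40. Its libraries were interleaved, and the sign turned between settings.

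Few large subunit members were higher. MRPL49 was at 1.28, 2.54 and 1.21 CPM with MRT199665 and at 0.755, 0.944 and 0.713 CPM with vehicle, all treated libraries above all vehicle libraries. It was the one member higher at an unadjusted p under 0.05, with a log2 fold change of 0.94 ± 0.39 (SE) and an adjusted p of 0.313 by edgeR, and it rested on 76 counts over all libraries. Without MRT199665 replicate 2 the log2 fold change was 0.62, and the unadjusted p was above 0.05 there and without any 1 of the vehicle libraries. MRPL4, part of the wall of the exit tunnel, was at 6.87, 8.28 and 11 CPM against 6.79, 7.38 and 5.29 CPM, with an adjusted p of 0.428 by edgeR and a log2 fold change of 0.43 that was 0.19 without replicate 3. Its lowest treated library overlapped the vehicle libraries.

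The high values of MRPL36, MRPL20 and MRPL45 came from 1 treated library. MRPL20, a protein of early large subunit assembly in bacteria, was at 12.1, 37.4 and 20.3 CPM with MRT199665 and at 27.4, 11.6 and 13.8 CPM with vehicle. Replicate 2 was highest among the treated libraries and replicate 1 among the vehicle libraries. MRPL45, which helps to hold the ribosome at the inner membrane, was at 26.8, 80.1 and 36.1 CPM against 67.6, 24 and 38.4 CPM, the same order.

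MRPL36, a small protein of the large subunit, was at 2.72, 9.80 and 3.33 CPM against 4.36, 2.15 and 3.05 CPM, with the same library highest. Log2 fold changes of 0.36 for MRPL20, 0.62 for MRPL36 and 0.12 for MRPL45 became -0.13, -0.08 and -0.46 without MRT199665 replicate 2. That of MRPL45 was also negative, at -0.19, without vehicle replicate 2.

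Among members named for the small subunit the lowest p belonged to MRPS30, at 42.2, 40.9 and 42.4 CPM with MRT199665 and at 49.8, 57.1 and 52.4 CPM with vehicle. The groups were well apart and the treated libraries nearly equal, at 41.8 ± 0.808 against 53.1 ± 3.71 CPM (SD, n = 3 each). The log2 fold change was -0.34 ± 0.11 (SE), with a 95% interval from -0.60 to -0.09 and an adjusted p of 0.194 by edgeR. MRPS35, a mitochondrial addition to the small subunit, was at 42.7, 42.4 and 41.9 CPM against 48.7, 50.5 and 55.1 CPM. Its log2 fold change was -0.28 ± 0.11 (SE) with an adjusted p of 0.28 by edgeR, and again no libraries overlapped.

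MRPS17 and MRPS15 have bacterial counterparts that bind the small ribosomal RNA early in assembly. MRPS17 was at 21.5, 17.6 and 21.1 CPM with MRT199665 and at 23.9, 31 and 25.4 CPM with vehicle, with an adjusted p of 0.255 by edgeR. MRPS15 was at 63.1, 66.1 and 68.8 CPM against 73.5, 83.7 and 75.2 CPM, with an adjusted p of 0.37 by edgeR. Treated libraries were below vehicle libraries for both genes, by 1.33-fold and 1.17-fold. MRPL11, MRPL52 and MRPS5, the remaining members with groups that did not overlap on the lower side, were each 1.11-fold lower.

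The MRPS18 proteins form a family of 3 related genes whose products take different places in the ribosome. MRPS18B made up 13.1% to 15.3% of all member counts of a library. It was at 653, 702 and 726 CPM with MRT199665 and at 776, 828 and 813 CPM with vehicle, without overlap. The log2 fold change was -0.22 ± 0.11 (SE), with a 95% interval from -0.47 to 0.04 and an adjusted p of 0.418 by edgeR. MRPS18C was at 8.31, 17.8 and 9.0 CPM against 20.8, 12.5 and 12.2 CPM, with overlapping libraries and a 95% interval from -1.16 to 0.30. Its log2 fold change was -0.43, but -0.81 without MRT199665 replicate 2 and -0.14 without vehicle replicate 1. MRPS18A had at most 4 counts in a library and was not tested.

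On the higher side of the small subunit no member reached an unadjusted p under 0.05. MRPS11, whose bacterial counterpart lies in the platform of the small subunit, was at 23.9, 24.2 and 24.9 CPM with MRT199665 and at 17.4, 23.1 and 21.9 CPM with vehicle. The groups did not overlap, and the adjusted p was 0.516 by edgeR. The log2 fold change of 0.23 was 0.11 without vehicle replicate 1. MRPS21 was at 178, 270 and 206 CPM against 198, 149 and 180 CPM, with an adjusted p of 0.467 by edgeR and a log2 fold change of 0.31 that was 0.13 without MRT199665 replicate 2. MRPS6 was at 56.3, 63.0 and 55.9 CPM against 51, 56.0 and 46.8 CPM, with an adjusted p of 0.527 by edgeR.

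MRPS21 and MRPS6 overlapped between the groups. MRPS27, an RNA-binding pentatricopeptide repeat protein, was at 284, 506 and 340 CPM with MRT199665 and at 387, 203 and 304 CPM with vehicle, a log2 fold change of 0.34 ± 0.27 (SE). Without both ends of the first principal component, MRT199665 replicate 2 and vehicle replicate 2, it was -0.15. MRPS36, which is now described as a part of the 2-oxoglutarate dehydrogenase complex and not of the ribosome, was at 8.68, 13.2 and 12.5 CPM against 14.7, 13.6 and 11 CPM. Its libraries overlapped.

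**Figure D3:**
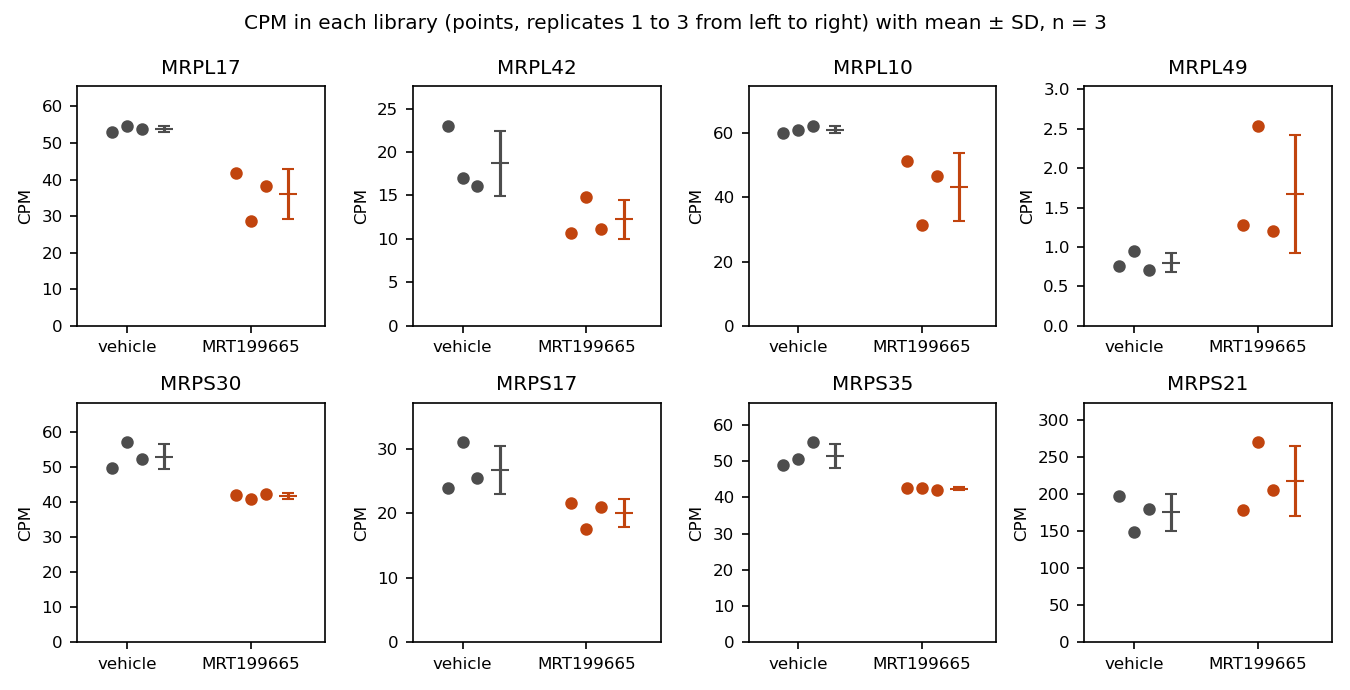
CPM (y axis, linear, from 0) of 8 named members in each library, vehicle and MRT199665 replicates 1 to 3 as points from left to right, with the group mean ± SD (n = 3). MRPL17, MRPL42, MRPL10, MRPS30, MRPS17 and MRPS35 have all treated points below all vehicle points, MRPL49 has them above, and MRPS21 overlaps.

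The 6 members that were not tested had few counts in every library. MRPL30, MRPL38, MRPL39, MRPL53, MRPS18A and MRPS24 had from 0 to 11 counts, where 3 counts, the limit that a count of 0 allows, stood for 0.210 to 0.511 CPM (counting error only). Differences in these genes were not detectable at this depth. Counting at 3′ ends, in an annotation the labels do not name, sets which genes collect reads. Many members have processed pseudogenes, and how shared reads were assigned is not known. The 66 pseudogene rows held 0.0238% to 0.0723% as many counts as the members. Reads from genes that overlap a member on the other strand cannot be told apart, since the labels state no strand setting.

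Several members varied widely between libraries of 1 group. In 9 of 70 members (12.9%, against 20.5% of all genes) the highest library of a group was at least 2-fold above the lowest of the same group. The ratio within a group reached 3.61 for MRPL36, 3.09 for MRPL20 and 2.99 for MRPL45, and its median over members, taking the larger of the 2 groups, was 1.41. In 24 members (34.3%, against 22.4% of all genes) MRT199665 replicate 2 was the highest treated library and vehicle replicate 1 the highest vehicle library. These were 17 of 43 large and 7 of 27 small subunit members, and they included MRPL45, MRPL36, MRPL20, MRPL34, MRPL13, MRPS27 and MRPS18C.

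The reverse order, with both libraries lowest in their group, held for 14 members (20%, against 23.8% of all genes), 8 of the large and 6 of the small subunit, among them MRPL23, MRPL47, MRPL10 and MRPS28. MRPL47 was at 41.0, 30.6 and 41.0 CPM with MRT199665 and at 36.2, 64.9 and 51.8 CPM with vehicle. The members thus did not move as 1 block from library to library. What sets these libraries apart was not tested, although MRT199665 replicate 2 is also the library with the fewest counts.

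**Figure D4:**
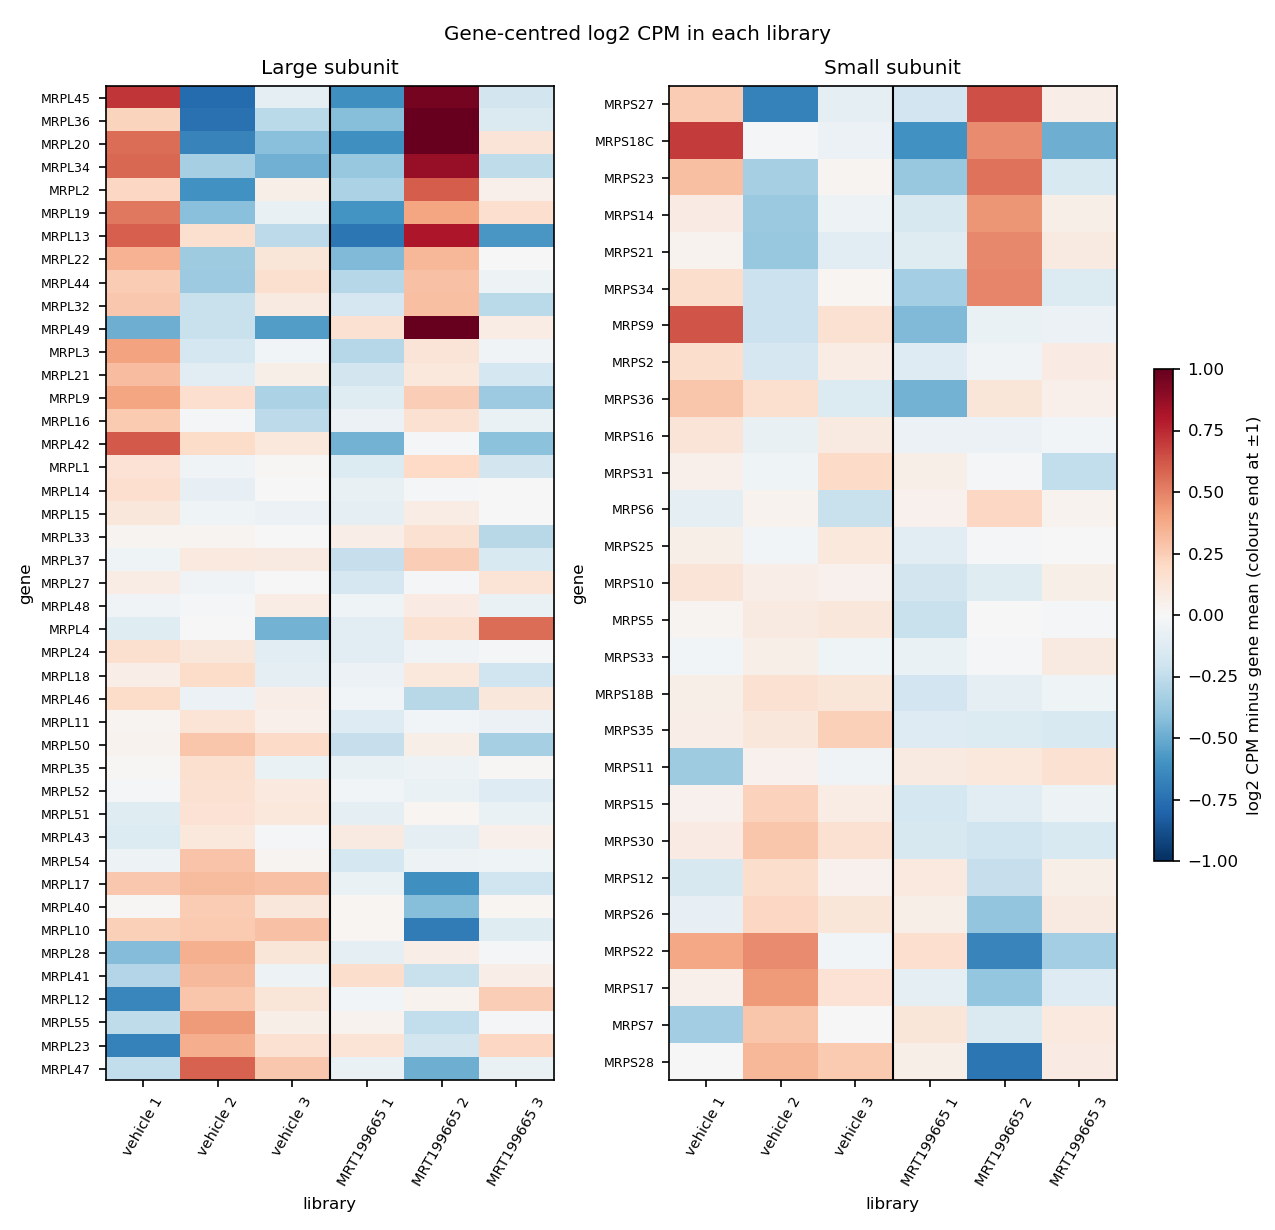
Gene-centred log2 CPM (colour, ending at 1 log2 unit above and below the gene mean) of tested large and small subunit members in the 6 libraries. Genes are ordered by their values in vehicle replicates 1 and 2 and MRT199665 replicate 2, so the gradient down these columns follows from the sorting, and genes such as MRPL45 and MRPL47 lie at opposite ends.

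Subunits of the ribosome that carry other names were compared with the members. Of the large subunit, GADD45GIP1, MRP63 (MRPL57) and ICT1 (MRPL58, a release factor built into the ribosome) had log2 fold changes of -0.17, 0.12 and -0.14. Of the small subunit, DAP3, PTCD3, AURKAIP1 and CHCHD1 had 0.07, -0.05, -0.01 and 0.12. All 7 were tested and 0 were called. DAP3, a GTP-binding protein, was at 21, 39.5 and 23.6 CPM with MRT199665 and at 37.5, 17.5 and 23.9 CPM with vehicle, so that replicate 2 was highest among the treated and replicate 1 among the vehicle libraries, as for MRPL45. With these genes added, the difference of the subunit medians was 0.01.

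Genes that build the mitochondrial ribosome or work with it also stayed below the threshold. Of 17 translation factor genes 15 were tested and 0 called, 10 of them negative, with a median log2 fold change of -0.04. MTIF2, the initiation factor that brings the first transfer RNA, was at 87.4, 67.6 and 71.4 CPM with MRT199665 and at 97.7, 96.6 and 91.6 CPM with vehicle, with an adjusted p of 0.265 by edgeR. TUFM, the elongation factor that delivers transfer RNAs, was at 391, 374 and 444 CPM against 475, 471 and 444 CPM, with an adjusted p of 0.483 by edgeR.

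Of 28 genes for ribosome assembly and ribosomal RNA modification 27 were tested and 0 called, 14 of them negative, with a median of -0.01. RPUSD3, a pseudouridine synthase family member, was at 71.5, 58.0 and 66.5 CPM with MRT199665 and at 85.9, 89.9 and 87.6 CPM with vehicle, with an adjusted p of 0.135 by edgeR. DHX30, an RNA helicase of assembly, had a log2 fold change of -0.26 ± 0.11 (SE) and an adjusted p of 0.3 by edgeR. Of 18 tested genes for the expression of mitochondrial DNA 0 were called and 12 were negative, with a median of -0.07. LRPPRC, which stabilises mitochondrial messenger RNAs, was at 73.1, 69.6 and 76.1 CPM against 94.0, 84.8 and 90.1 CPM, with an adjusted p of 0.235 by edgeR. PNPT1, a mitochondrial exoribonuclease, had a log2 fold change of -0.33 and an adjusted p of 0.326 by edgeR. RPUSD3, DHX30, LRPPRC, PNPT1 and MTIF2, picked for their low p, were lower in each treated library than in each vehicle library, as 10.8% of all genes were.

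The RNA partners of these proteins come from mitochondrial DNA. MT-RNR1, the small subunit ribosomal RNA, was at 2545, 2622 and 2540 CPM with MRT199665 and at 2213, 2239 and 2208 CPM with vehicle, above vehicle in each library. Its log2 fold change was 0.21 ± 0.12 (SE), with an adjusted p of 0.447 by edgeR, while MT-RNR2 of the large subunit had 0.20 and an adjusted p of 0.632. The 13 mitochondrial messenger RNAs had 0 calls and 8 negative values, with a median of -0.01. MT-ND5, a complex I subunit, had a log2 fold change of -0.41 and an adjusted p of 0.264 by edgeR, and MT-ND6, also of complex I, had -0.38 and 0.389. Of 22 mitochondrial transfer RNAs 15 were tested and 0 called, 13 of them negative, with a median of -0.31. Vehicle replicate 2 was the highest library for 14 of the 15, and without it 7 were negative, with a median of 0.01. The lowest p were those of MT-TC and MT-TM, with log2 fold changes of -0.66 and -0.43 and adjusted p of 0.205 and 0.412 by edgeR. The libraries were made from 3′ ends of messenger RNA, so values of ribosomal and transfer RNAs need not follow the amount of the whole RNA.

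Regulators of nuclear genes for mitochondrial proteins were the one list with calls. Of 15 genes 13 were tested and 2 were lower, ATF5 and ATF4, transcription factors of the mitochondrial and integrated stress responses. Of all genes tested 1.25% passed in either direction, and this list was chosen with earlier results of these data known. ATF5 was at 984, 925 and 756 CPM with MRT199665 and at 1582, 1835 and 1631 CPM with vehicle, a log2 fold change of -0.92 ± 0.14 (SE) with an adjusted p of 0.021 by edgeR. ATF4 was at 936, 662 and 860 CPM against 1381, 1565 and 1521 CPM, a log2 fold change of -0.86 ± 0.15 (SE) with an adjusted p of 0.038 by edgeR. Both were lower in each treated library. NRF1 and GABPA, factors known for binding at promoters of mitochondrial genes, had log2 fold changes of -0.04 and 0.08, and neither was called. The 95% interval ran from -0.34 to 0.25 for NRF1 and from -0.68 to 0.84 for GABPA, which rested on 134 counts over all libraries.

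The cytosolic ribosomal proteins, which form the cell's main ribosome, had mostly positive values. Of 84 genes 80 were tested and 0 called, 62 of them with a positive log2 fold change and a median of 0.17. RPL28 and RPL39L had the lowest p, with log2 fold changes of 0.38 and -0.59 and adjusted p of 0.305 by edgeR for each. Their gene-centred mean was -0.094, 0.39 and -0.00765 in MRT199665 replicates 1, 2 and 3 and 0.00624, -0.167 and -0.127 in the vehicle replicates. MRT199665 replicate 2 was the highest library and the groups overlapped. Without it 54 of 80 were positive, with a median of 0.06. The difference between the 2 kinds of ribosome was not tested.

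RefSeq promoters on the GRCh38.p14 build, from 250 bases before to 50 after the annotated start, were matched to 67 of the 76 members. They were searched on both strands for CCGGAAG, the core bound by ETS factors such as GABP and for the 10-letter palindrome bound by NRF1, which shares no position with the first motif in the members. CCGGAAG was found in 27 of 67 member promoters (40.3%), 16 of 40 of the large subunit (40.0%) and 11 of 27 of the small subunit (40.7%). Of all 27305 promoters 10.6% held it. Of the promoters of tested genes 20.4% did, but since only 70.2% of tested genes could be matched to a promoter, under the 80% set as the least, that comparison is void as a check. At least 2 copies were present in 7 member promoters (10.4%), against 1.87% of all promoters and 4.18% of those of tested genes. Of the 36 matches, 26 lay within 100 bases upstream of the start and 5 downstream of it. The NRF1 motif was found in 1 member promoter, that of MRPL17 (1.49%), against 1.31% of all promoters and 2.43% of those of tested genes. The same incomplete match applies to these shares of tested genes.

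Sequence is shown for MRPL17, for some members with values above and for some promoters with several copies, and not around every match. Each stretch reads 5′ to 3′ on the strand where the motif reads as spelt, with that strand given, and capitals mark the motif, in MRPS22 also its reverse complement.
MRPL17 (chr11:6683402-6683431, minus strand): aggctctgatGCGCATGCGCaaacacgttc
MRPL20 (chr1:1407319-1407348, minus strand): cgaccttcgccCCGGAAGtatcgcaggggc
MRPL20 (chr1:1407296-1407325, minus strand): caggggctgacCCGGAAGcgctcgtgacca
MRPS18A (chr6:43687804-43687833, minus strand): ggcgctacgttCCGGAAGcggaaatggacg
MRPS18C (chr4:83455825-83455854, plus strand): gggctcgcggaCCGGAAGcacgcataaact
MRPS21 (chr1:150293838-150293867, minus strand): ggttctcactaCCGGAAGcggaaattacgg
MRPS22 (chr3:139343896-139343925, plus strand): tctataagggcCCGGAAGaCTTCCGGccct
MRPS34 (chr16:1773146-1773175, plus strand): gCCGGAAGtcaCCGGAAGaggccggtgtcc

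The response was also described by promoter match. Of 23 tested members with a match 18 were negative, with a median log2 fold change of -0.10, and of 38 without a match 25 were negative, with a median of -0.09. A match is a stretch of letters in these windows and not a bound site.

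**Figure D5:**
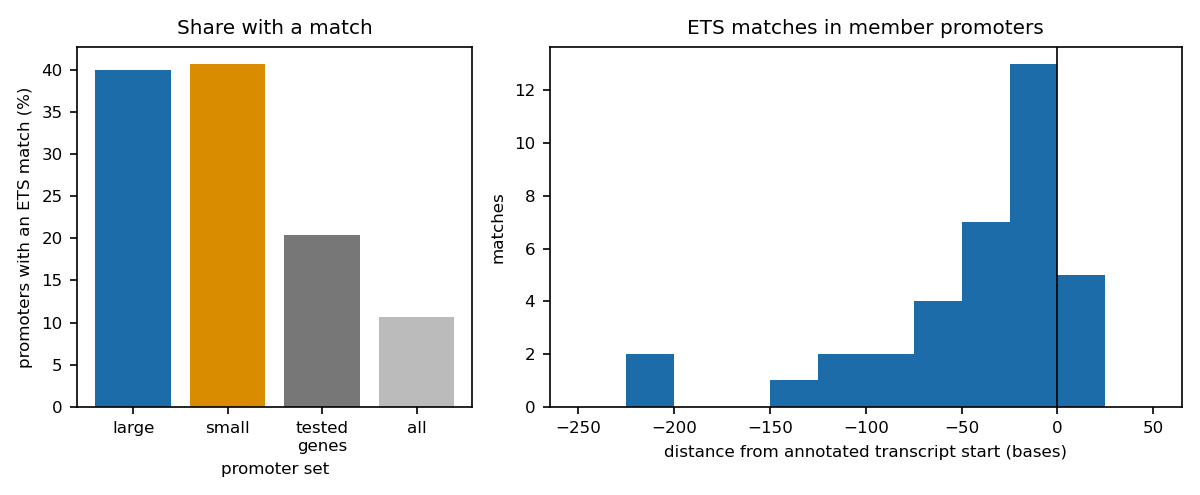
Left, percent of promoters with an ETS core match (y axis) for large subunit members, small subunit members, tested genes and all genes, at 40.0%, 40.7%, 20.4% and 10.6%. Right, number of matches in member promoters (y axis) by distance from the annotated start in bases (x axis, in steps of 25); of the 36 matches, 26 lie within 100 bases upstream of the start.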

How the data were processed

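Libraries of OCI-AML2 were grouped by the labels (3 MRT199665, 3 vehicle). Values in the deposited table are unnormalized counts, whole numbers per symbol. Per the submitters' processing notes, the build was hg19 and the tools DESeq2, HTSeq 0.6.1 and STAR 2.4. Annotation, strand setting and read filters were not given in the sources used here.

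All genes of the table were fitted in edgeR 4.0.16 under R 4.3.3 (quasi-likelihood, TMM scaling, filterByExpr at min.count 10 and min.total.count 15, group as the only term, two-sided, Benjamini-Hochberg over 13053 genes, threshold 0.05). The script was tested on simulated data. Intervals are 95% from the fitted SE. Gene-centred values used log2 CPM with a prior count of 2. Groups are called not overlapping where all libraries of one lie beyond all of the other.

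The members and lists were chosen with earlier results of these data known. Named members were those called, the 4 of lowest p per subunit and direction, and MRPS30, MRPS18A, MRPS18B, MRPS18C, MRPL12, MRPL45, MRPS36 and MRPL41; from other lists, called genes or the 2 of lowest p. Members whose groups did not overlap, those named for their library order, and genes given beside these lists were chosen after their values were seen. MRPS22 and MRPS34 were named only for their promoters. Alternatives were RLE and upper quartile scaling, no filter or 1 CPM in 3 libraries, DESeq2 1.42.0, limma-voom 3.58.1, the replicate block, other memberships and leaving out each library. The counts of transfer RNAs, cytosolic ribosomal proteins and negative members with 1 library left out were added after seeing the data. Leaving out MRT199665 replicate 2 and vehicle replicate 2, the ends of the first component, was also added then. Chi-square comparisons found no copied libraries. Promoters were taken from RefSeq; no genome coordinates of the counts are given. Some marker genes of other cell types are not reported here.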

Additional observations from a re-analysis of the deposited data

How the results depend on the processing

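Over 14 other fits no member was called higher, and none lower except MRPL17 and MRPL42. These 2 were called without the low-count filter, where 76 members were tested and the share of all genes called is not given. The subunit medians, each over the members tested in that fit, stayed negative. They ran from -0.13 to -0.04 for the large and from -0.159 to -0.088 for the small subunit. The latter end of each was without MRT199665 replicate 1. Over the 27 small subunit members of the main fit, the median was -0.093 without that library and -0.08 without vehicle replicate 3. Of 308 values of 22 named members under these fits, 290 kept their direction and side of the threshold and 2 passed it. The other 16 changed sign, all in members with wide or near-zero values, and the cause was not tested. MRPL41 was -0.002 with RLE scaling, -0.002 with DESeq2 and -0.017 without the filter. Without both ends of the first component, chosen after seeing the data, log2 fold changes were -0.362 for MRPL20, -0.306 for MRPL36, -0.759 for MRPL45 and -0.153 for MRPS27. Leaving out 1 library at a time gave ranges of -0.133 to 0.178 for MRPL41, -0.126 to 0.829 for MRPL20, -0.077 to 0.943 for MRPL36, -0.462 to 0.586 for MRPL45 and -0.118 to 0.292 for MRPL12. With 3 libraries a group and 5871097 counts in the shallowest, changes of members at few CPM were not detectable.

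Libraries of the same number did not deviate together (correlations over all genes tested of -0.547, -0.467 and 0.0182). With 3 libraries a group, these values cannot settle whether the number is a pairing, and the main fit used none. With the replicate block 0 members were called, and 3 were lower at an unadjusted p under 0.05 against 6 without it. The share of all genes in the block fit is not given here, so whether that fall is particular to the members was not tested. The median log2 fold changes with the block were -0.080 for the large and -0.135 for the small subunit.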
